A study of Mus musculus with 4 samples.

Results

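A set of 10 genes of the Notch pathway, picked out by their symbols, was described in retinal RNA of mouse embryos. The set was chosen with earlier results of these data known. They were 3 receptors (Notch1, Notch2 and Notch3), 4 ligands (Dll1, Dll3, Dll4 and Jag1) and 3 Hes and Hey target genes (Hes1, Hes5 and Hey1). All 10 members were among the 18471 genes of the count table, and all 10 passed the filter on low counts, which left 17300 genes. The 4 libraries were each made from total RNA of the retina of 1 genotyped embryo at embryonic day 19. The wild-type group held 2 embryos. The other group, labelled Foxn3KO, held 2 embryos with genotype Foxn3-/-, from the C57BL/6NJ-Foxn3em1(IMPC)Bay/Mmnc line, in which Foxn3, a forkhead transcription factor gene, lacks exon 3. The labels restrict the deletion to no cell type or stage. The study's title concerns a transcriptional network that regulates primary cilia, and the comparison here asks how Notch transcripts differed between the groups.

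Notch receptors sit in the cell membrane and are activated by Delta or Jagged ligands on a neighbouring cell. The bound receptor is cleaved, and its released intracellular part joins the DNA-binding protein RBPJ in the nucleus to switch on genes of the Hes and Hey families. These encode repressors that hold back proneural genes. In the developing retina this signalling keeps progenitors dividing and delays their differentiation into neurons, and Müller glia, the glial cells of the retina, also arise under it.

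Total counts were 22543531 to 29360129 per library. Wild-type replicate 1 stood apart in sex-linked RNA: Xist had 83073 counts there and 9 to 19 in the other 3 libraries. The Y-linked genes Ddx3y, Eif2s3y and Kdm5d had 0 counts there and 1461 to 2317 in the other 3 libraries. By these genes wild-type replicate 1 came from a female embryo and the others from males, so sex was not balanced between the groups. Sex was no term of the fit and its part was not tested, but results are also given without wild-type replicate 1. The targeted gene went against its label at the level of whole-gene counts. Foxn3 had 2421 and 2712 counts in the wild-type-labelled libraries and 4181 and 3219 in the Foxn3KO-labelled ones, and whole-gene counts do not resolve exon 3. Groups are therefore named by their labels, and every direction below rests on these labels. The tissue label was checked against 12 retinal progenitor markers, which were all detected in every library. Their sum in CPM (counts scaled to library size, with TMM factors) was 6956 and 7292 in the wild-type-labelled libraries and 6669 and 6709 in the Foxn3KO-labelled ones. Lens markers differed between libraries: their sum was 8.19 and 70.6 CPM in the wild-type-labelled libraries and 309.5 and 308.8 CPM in the Foxn3KO-labelled ones.

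The upstream sequences of 4 genes are shown, those of a Notch target gene and of the 3 ligand genes that differed between the groups. GACGC and the N-box also occur in the windows of other members, as given below. They are the 250 bases before the annotated start from RefSeq on GRCm38.p6, printed 5′ to 3′ on the strand of the gene. The counts were made on mm39 according to the submitters' processing notes, so these positions are not those of the count table. Hes5 (window chr4:154960673-154960922, plus strand) encodes a Notch effector, and its capitals mark the RBPJ motif GTGGGAA, once on each strand.
Hes5: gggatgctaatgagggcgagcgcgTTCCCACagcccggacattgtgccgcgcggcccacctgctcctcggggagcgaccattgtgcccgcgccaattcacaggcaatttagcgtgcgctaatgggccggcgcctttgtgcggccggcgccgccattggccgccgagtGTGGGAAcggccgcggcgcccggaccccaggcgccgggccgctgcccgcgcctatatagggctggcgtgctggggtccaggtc
Jag1 (window chr2:137116521-137116770, minus strand) encodes a Jagged ligand, and its capitals mark GACGC on the opposite strand, a forkhead-like motif that Foxn3 is known to bind.
Jag1: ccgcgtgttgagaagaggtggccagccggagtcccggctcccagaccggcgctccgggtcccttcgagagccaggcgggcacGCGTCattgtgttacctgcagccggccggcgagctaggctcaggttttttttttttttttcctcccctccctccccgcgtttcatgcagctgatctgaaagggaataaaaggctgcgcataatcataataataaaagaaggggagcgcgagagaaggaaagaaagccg
Dll3 (window chr7:28301786-28302035, minus strand) encodes a divergent Delta protein, and its capitals again mark GACGC on the opposite strand.
Dll3: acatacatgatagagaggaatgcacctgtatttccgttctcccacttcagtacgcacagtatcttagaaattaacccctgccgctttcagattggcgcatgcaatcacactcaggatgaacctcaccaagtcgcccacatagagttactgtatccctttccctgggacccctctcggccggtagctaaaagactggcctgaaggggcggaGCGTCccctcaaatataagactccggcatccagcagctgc
Dll4 (window chr2:119325534-119325783, plus strand) encodes a Delta ligand, and its capitals mark an N-box, CACNAG, the kind of site that Hes repressors are known to bind.
Dll4: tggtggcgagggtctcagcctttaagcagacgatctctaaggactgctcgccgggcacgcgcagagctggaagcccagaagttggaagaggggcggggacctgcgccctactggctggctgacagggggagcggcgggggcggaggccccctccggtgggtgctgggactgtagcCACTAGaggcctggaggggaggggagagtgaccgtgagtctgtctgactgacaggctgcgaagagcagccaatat

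Of the 10 members, 8 had a RefSeq window, 9 windows in all since 1 gene has several starts; Hes1 and Hey1 had none. Windows run from 250 bases before to 50 bases after the start, and 4 motifs were searched on both strands, with no overlap between matches of different motifs. The RBPJ motif GTGGGAA was found in the Hes5 window only among the 9, at bases -226 to -220 and -83 to -77 from the start, and in 6.38% of the 32851 windows of all genes. GACGC was found in 5 member windows (Notch1, Jag1, Hes5, Dll3 and Dll1) and in 27.2% of all windows. The N-box CACNAG was found in 5 member windows (Notch1, Dll4, Notch2, Dll1 and Notch3) and in 42.5% of all windows. Both motifs were thus found in members called in the genotype comparison below and in members not called. The canonical forkhead motif GTAAACA was in 0 member windows and in 3.65% of all. A match describes these letters and is not evidence of binding.

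The levels of the 10 genes were first ordered per gene length, by FPKM (fragments scaled to gene length and library size), as the authors deposited it. The target Hes5 stood highest, at 194.6 and 185.8 FPKM in the wild-type-labelled libraries and 184.7 and 180.6 in the Foxn3KO-labelled ones. Its mean of 186.4 FPKM over the 4 libraries was above 99.3% of all genes and 3.02 times that of Hes1, the next in order. Hes1 lay between 57.1 and 66.8 FPKM. Below these target genes came Dll1 (29.3 to 30.5 FPKM), Notch1 (26.9 to 28.8) and Dll3 (18.7 to 24.6). Dll4 (12.6 to 16.3) and Hey1 (10.5 to 13.2) followed, and then Notch3 (5.03 to 5.89), Notch2 (3.29 to 3.75) and Jag1 (0.605 to 1.31). Dll4 and Hey1 were the only neighbours in this order whose ranges over the 4 libraries overlapped. They were apart in the wild-type-labelled libraries, with Dll4 at 16.1 and 16.3 FPKM and Hey1 at 11.5 and 10.5. In the Foxn3KO-labelled libraries they overlapped, with Dll4 at 12.6 and 14.2 FPKM and Hey1 at 13.2 and 12.5.

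**Figure D1:**
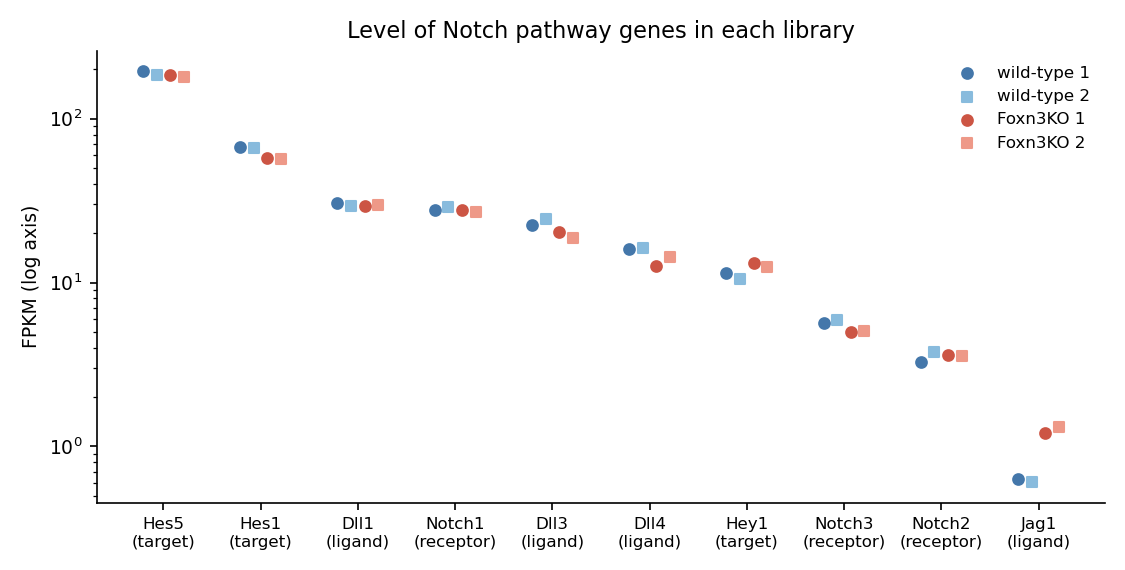
FPKM on a log axis (vertical) for each of the 10 genes (horizontal, ordered by mean), with 1 point per library and colours for the groups. Hes5 sits above 180 FPKM in every library and Jag1 below 1.4, and the points of Dll4 and Hey1 meet in the Foxn3KO-labelled libraries.

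Among the receptors and among the target genes, 1 gene made up most of the length-scaled RNA in every library. Notch1 took 74.9% to 76.2% of the summed FPKM of the 3 receptors. Hes5 took 70.9% to 72.3% of that of the 3 target genes. Among the ligands no gene took as much: Dll1 held 43.7% and 41.5% in the wild-type-labelled libraries and 46.2% and 46.4% in the Foxn3KO-labelled ones. Jag1 held 0.909% and 0.854% of ligand FPKM in the wild-type-labelled libraries and 1.90% and 2.06% in the Foxn3KO-labelled ones. Its share stayed small although it moved most of the 10 genes.

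The genotype comparison called 6 of the 10 genes at an adjusted p under 0.05 (edgeR quasi-likelihood, Benjamini-Hochberg over all 17300 tested genes). Of these, 2 were higher in the Foxn3KO-labelled libraries, Jag1 and Hey1, and 4 were lower, Notch3, Dll3, Dll4 and Hes1. The background share was 21.9% of all tested genes called, 12.3% higher and 9.66% lower. Jag1 was the only member with a difference near 2-fold; the other called members differed by 12.4% to 17.2%. By role, the test called 1 of 3 receptors, 3 of 4 ligands and 2 of 3 target genes. The median log2 fold change was -0.05 for receptors, -0.14 for ligands and -0.06 for target genes, beside -0.00470 for all tested genes. The groups did not overlap in CPM for 7 members, the 6 called ones and Hes5, but 60.4% of all tested genes also did not overlap. DESeq2 called 4 members, Dll3, Dll4, Jag1 and Hes1, beside a background of 16.3%. Without wild-type replicate 1 the same 6 members were called as with it, beside 25.3% of all tested genes, and 5 were called without wild-type replicate 2, beside 29.5%. Without Foxn3KO replicate 1 there were 3, beside 13.6%, and without Foxn3KO replicate 2 also 3, beside 13.5%, so the count of members fell with that of all tested genes. In such RNA from whole retina, fewer cells of a type and less RNA per cell cannot be told apart.

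**Figure D2:**
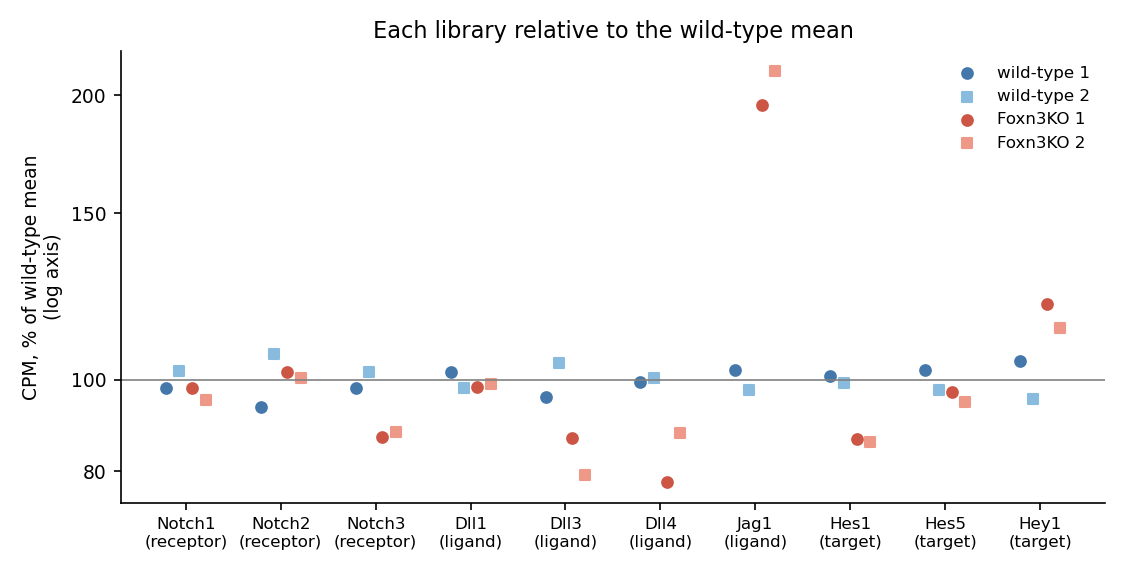
CPM of each library as a percentage of the mean of the wild-type-labelled libraries (vertical, log axis) for the 10 genes (horizontal, by role), with 1 point per library. Both Jag1 points of the Foxn3KO-labelled libraries lie at 195.3% and 212.1%, while Notch3, Dll3, Dll4 and Hes1 lie at 77.9% to 88.1%.

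Among the receptors, Notch1, the main receptor of retinal progenitors, had 9773 and 11161 counts in the wild-type-labelled libraries and 11497 and 8583 in the Foxn3KO-labelled ones. This was 402 ± 11.8 CPM against 389 ± 8.18 CPM (SD, n = 2 each). The libraries of the groups overlapped, and the log2 fold change of -0.05 had a 95% interval of -0.14 to 0.04 (edgeR adjusted p = 0.450). Notch2, a related receptor with a role in eye development, had 35.6 and 40.6 CPM in the wild-type-labelled libraries, which enclosed the 38.9 and 38.3 CPM of the Foxn3KO-labelled ones. Its log2 fold change was 0.02 with a 95% interval of -0.13 to 0.17 (edgeR adjusted p = 0.897), and its sign turned without wild-type replicate 1 (-0.07) and under total count scaling (-0.0032). The lower bounds of both intervals are smaller in size than the fall of Notch3 below, but the Notch3 interval overlaps both. A difference between receptors was not tested.

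Notch3, a receptor best known from the mural cells of blood vessels, was lower in the Foxn3KO-labelled libraries. It had 45.9 and 47.8 CPM in the wild-type-labelled libraries and 40.8 and 41.3 CPM in the Foxn3KO-labelled ones, from 924 to 1298 counts. Both Foxn3KO-labelled libraries lay below both others. The log2 fold change was -0.19 (SE 0.060, 95% interval -0.32 to -0.06, edgeR adjusted p = 0.0296). The call was lost in DESeq2 and when wild-type replicate 2, Foxn3KO replicate 1 or Foxn3KO replicate 2 was left out (log2 fold changes -0.19, -0.16, -0.18 and -0.20), and adjusted p-values ran from 0.00618 to 0.207 over the alternatives. Pericyte and mural cell markers, 8 of 10 in the table, summed to 17.2 and 20.8 CPM in the wild-type-labelled libraries and 19.6 and 20.5 CPM in the Foxn3KO-labelled ones, with none at 0. Pdgfrb, not called, made up most of these sums, at 11.8 and 13.3 against 12.2 and 13.6 CPM. The sums therefore say little about the rest of this list. Of the 7 markers in the list that were tested, edgeR called 1 higher (Rgs5) and 1 lower (Des). DESeq2 called 0 of the 3 with an adjusted p, and the part of these cells in the Notch3 result was not tested.

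The Delta ligands did not move together. Dll1, a ligand of newly forming neurons and their precursors, had 129 and 124 CPM in the wild-type-labelled libraries and 124 and 125 CPM in the Foxn3KO-labelled ones. These groups overlapped, with a log2 fold change of -0.02 (95% interval -0.12 to 0.08, edgeR adjusted p = 0.803) that was 0.0092 without wild-type replicate 1.

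Dll3, a divergent Delta protein that is not known to activate receptors on neighbouring cells, was lower in the Foxn3KO-labelled libraries. It had 1601 and 1908 counts, or 64.6 and 70.2 CPM, in the wild-type-labelled libraries. In the Foxn3KO-labelled ones it had 1703 and 1196 counts, or 58.5 and 53.4 CPM. The log2 fold change was -0.27 (SE 0.062, 95% interval -0.40 to -0.14, edgeR adjusted p = 0.00422). The replicates of each group differed by several CPM, and without Foxn3KO replicate 2 the value was -0.20 and the call was lost, with adjusted p-values from 3.07e-07 to 0.0974 over the alternatives.

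Dll4, a ligand found both in neurogenic retinal cells and in growing blood vessels, was also lower in the Foxn3KO-labelled libraries. It had 1543 and 1706 counts, or 62.2 and 62.8 CPM, in the wild-type-labelled libraries. In the Foxn3KO-labelled ones it had 1418 and 1230 counts, or 48.7 and 54.9 CPM, so the wild-type-labelled replicates lay close together and the others apart. The log2 fold change was -0.27 (SE 0.062, 95% interval -0.40 to -0.14, edgeR adjusted p = 0.00408). Without Foxn3KO replicate 1 it was -0.19 and the call was lost, with adjusted p-values from 2.14e-05 to 0.151 over the alternatives. Endothelial markers, 10 of 12 in the table with none at 0, summed to 389 and 402 CPM in the wild-type-labelled libraries and 386 and 377 CPM in the Foxn3KO-labelled ones. Nearly all of this was Kdr, which retinal progenitors are also known to express; without it the sums were 30.7 and 28.9 against 31.9 and 29.4 CPM. Most of the rest was Cldn5, not called, at 19.5 and 17.7 against 17.5 and 16.9 CPM, so these sums say little about the other markers. Cdh5 was low, at 0.565 to 1.17 CPM. Pecam1 and Tek were called higher by edgeR, while DESeq2 called 0 of the 5 markers with an adjusted p. The part of endothelial cells in the Dll4 result was not tested. A gene model on the opposite strand, Gm14207, overlaps Dll4 and had 353 and 358 counts in the wild-type-labelled libraries and 409 and 321 in the Foxn3KO-labelled ones, 24.4% of the Dll4 counts in all. The use of strand in counting was not given in the sources used here, so reads of the pair may not have been told apart.

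Jag1, the only Jagged ligand among the members, rose about 2-fold in the Foxn3KO-labelled libraries. It had 92 and 96 counts in the wild-type-labelled libraries and 206 and 172 in the Foxn3KO-labelled ones. In CPM this was 3.71 and 3.53 against 7.07 and 7.68, so both libraries of the second group were far above the first. The log2 fold change was 1.02 (SE 0.155, 95% interval 0.70 to 1.35, edgeR adjusted p = 9.94e-05). These are the lowest counts of the 10 genes, and counting error alone was 6.97% to 10.4% per library. Of the 10 members, Jag1 alone was called under every alternative tried, with values from 0.97 to 1.08 when 1 library was left out.

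Jag1 is also expressed in lens and in tissue at the retinal margin, so markers of such tissue were set beside it. Of 12 lens markers 10 were in the table and 9 were tested, and edgeR called all 9 higher, beside the background of 12.3%; DESeq2 called 3 of them. Their summed level was higher in both Foxn3KO-labelled libraries, as was Jag1, and it also differed between the wild-type-labelled libraries, at 8.19 and 70.6 CPM, where Jag1 had 3.71 and 3.53 CPM. Crygs was at 0 in wild-type replicate 1. The 11 measured markers of the ciliary margin and pigment epithelium, with none at 0, summed to 246 and 274 CPM against 253 and 260 CPM. Mab21l1, not called, made up most of these sums, at 189 and 194 against 205 and 209 CPM. The sums therefore say little about the rest of this list, in which 2 were called higher (Msx1 and Otx1) and 3 lower (Rgr, Tyr and Pmel). Log2 fold changes in the list ran from -0.97 to 1.63. The 7 measured astrocyte markers, with none at 0, summed to 125 and 128 CPM against 225 and 219 CPM. Igfbp5 accounted for this: without it the sums were 54.8 and 52.1 against 44.7 and 46.6 CPM, and Gfap fell while Fgfr3 and Aldh1l1 rose. The part of these tissues in the Jag1 result was not tested.

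**Figure D3:**
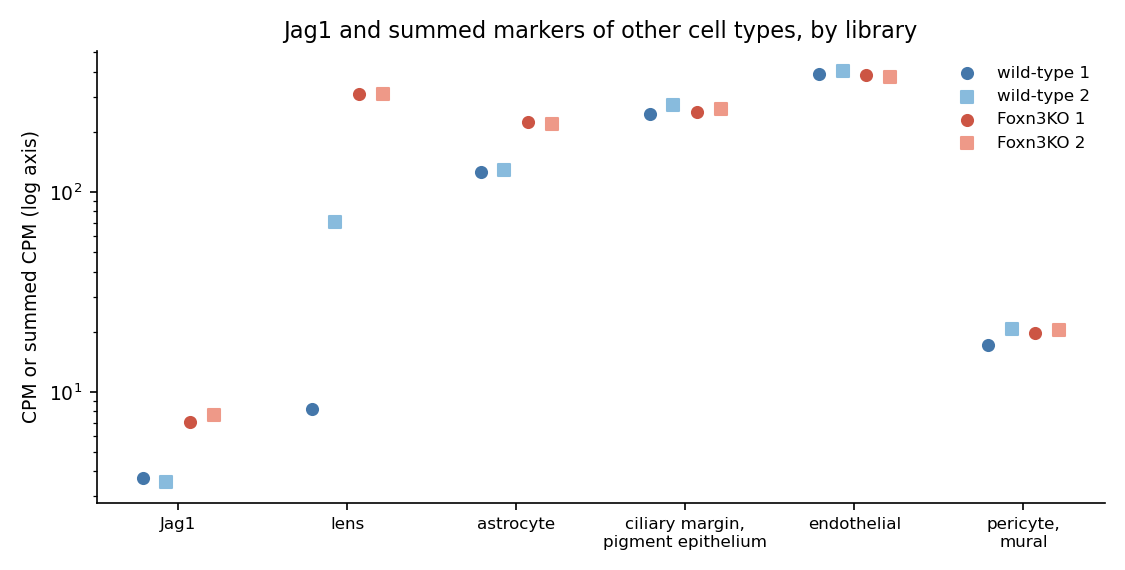
CPM of Jag1 and summed CPM of 5 marker lists (horizontal) on a log axis (vertical), with 1 point per library. The lens sum differs between the 2 wild-type-labelled libraries (8.19 and 70.6 CPM) while their Jag1 points lie together (3.71 and 3.53 CPM).

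The tested genes most like Jag1 over the 4 libraries, by Euclidean distance of centred log2 CPM among 14925 genes averaging 1 CPM or more, were Usp43 (0.0596), Wdr35 (0.0625) and Etfbkmt (0.0647). Wdr35 is a component of the intraflagellar transport machinery of cilia. With 4 libraries this likeness mainly reflects the size of the genotype difference, which was 1.02 for Usp43, 1.03 for Wdr35 and 1.02 for Etfbkmt on the log2 scale.

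The target genes went different ways. Hes1, a repressor that maintains progenitors, had 3392 and 3654 counts in the wild-type-labelled libraries and 3422 and 2612 in the Foxn3KO-labelled ones. Scaled for depth this was 136.8 and 134.5 CPM against 117.5 and 116.6 CPM, a gap wider than the spread within either group. The log2 fold change was -0.21 (SE 0.045, 95% interval -0.31 to -0.12, edgeR adjusted p = 0.00247). Without Foxn3KO replicate 2 the value was -0.21 and the call was lost, and adjusted p-values over the alternatives ran from 3.88e-06 to 0.0570.

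Hes5, the effector most closely tied to Notch activity in neural progenitors, was not called. It had 266 and 254 CPM in the wild-type-labelled libraries and 253 and 247 CPM in the Foxn3KO-labelled ones, from 5527 to 7353 counts. The groups did not overlap but nearly touched, and the log2 fold change was -0.06 (95% interval -0.15 to 0.03, edgeR adjusted p = 0.363). It passed the threshold only when wild-type replicate 2 was left out, at -0.09, and adjusted p-values over the alternatives ran from 0.0306 to 0.803.

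Hey1, a related repressor also expressed in vessels, was higher in the Foxn3KO-labelled libraries. It had 37.7 and 34.3 CPM in the wild-type-labelled libraries and 43.3 and 40.8 CPM in the Foxn3KO-labelled ones, from 914 to 1262 counts. Both Foxn3KO-labelled libraries lay above both others, with a log2 fold change of 0.23 (SE 0.068, 95% interval 0.08 to 0.37, edgeR adjusted p = 0.0228). The call was lost in DESeq2 (0.23), without wild-type replicate 2 (0.16) and without Foxn3KO replicate 1 (0.18), and adjusted p-values over the alternatives ran from 0.000340 to 0.236.

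**Figure D4:**
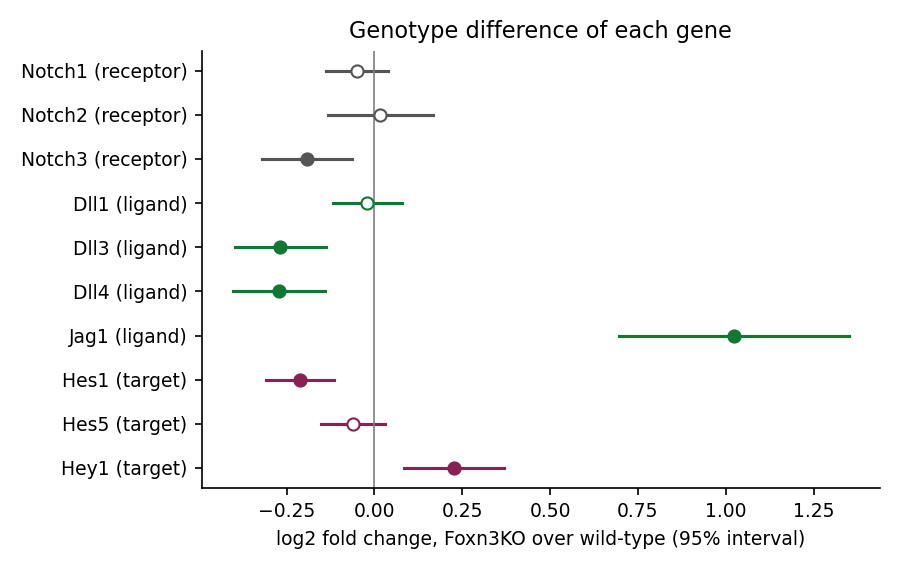
Log2 fold change of the Foxn3KO-labelled libraries over the wild-type-labelled ones (horizontal) for each gene (vertical), with lines for the 95% interval of the edgeR fit and filled points for an adjusted p under 0.05. The Jag1 interval of 0.70 to 1.35 lies apart from those of the other 9 genes, which all lie between -0.40 and 0.37.

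The authors' deposited table gives log2 fold changes shrunken towards 0, and in it 4 of the 10 members had an adjusted p under 0.05. In the authors' deposited table Jag1 had 0.92 with an adjusted p of 0.000179, and Hes1 had -0.20 with 0.00459. Dll3 and Dll4 had -0.25 each in the authors' deposited table, and Notch3 and Hey1 did not pass there (adjusted p = 0.143 and 0.0948).

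The rest of the pathway was read from 6 lists of 80 genes, of which 79 were in the table and 78 were tested. Of these, 17 were called, 6 higher and 11 lower, beside the background of 21.9%. The median log2 fold change of the 78 genes was -0.00346. Leaving out wild-type replicate 1 gave 23 calls, beside 25.3% of all tested genes, and leaving out wild-type replicate 2 gave 26, beside 29.5%. It was 9 without Foxn3KO replicate 1 and 10 without Foxn3KO replicate 2, beside 13.6% and 13.5%.

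Of the enzymes that add sugars to the receptors, 5 of 11 were called, 1 higher and 4 lower. Lfng, the fringe enzyme that changes which ligands a Notch receptor answers to, rose from a mean of 106 ± 2.08 CPM to 157 ± 6.46 CPM (SD, n = 2 each), which is 0.56 on the log2 scale (edgeR adjusted p = 8.33e-08). Gxylt1, a xylosyltransferase of these receptors, fell by 0.22 and Eogt, which adds N-acetylglucosamine, fell by 0.33 on the log2 scale. Without Foxn3KO replicate 1 Eogt was no longer called, at -0.28. The remaining calls, Mfng (-0.24), another fringe, and Poglut2 (-0.32), an O-glucosyltransferase, are named after their values were seen.

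Among 8 further receptors and ligands, 1 was called: Dner, a neuronal membrane protein with Delta-like repeats, rose from 75.5 ± 10.7 to 111 ± 2.83 CPM (SD, n = 2 each; log2 fold change 0.56, edgeR adjusted p = 1.22e-05). Of the 10 genes for receptor cleavage, which encode Furin, the ADAM proteases and the gamma-secretase subunits, edgeR called 0 and DESeq2 also 0, with 2 at an unadjusted p under 0.05 in edgeR. Of 15 genes for ubiquitination and trafficking, 1 was higher and 2 lower. Neurl1a, a ubiquitin ligase that acts on Notch ligands, rose from 23.1 ± 1.80 to 36.1 ± 0.573 CPM (SD, n = 2 each; log2 fold change 0.64, edgeR adjusted p = 4.32e-06). Itch, a ubiquitin ligase, fell by 0.18 and Aak1, a kinase of endocytosis, fell by 0.15 on the log2 scale. Both lost the call without Foxn3KO replicate 1 (-0.17 and -0.13) and without Foxn3KO replicate 2 (-0.18 and -0.18), and Aak1 also in DESeq2 (-0.15).

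In the nuclear complex and its co-repressors, 3 of 22 genes were called, 1 higher and 2 lower. Spen, a co-repressor that binds RBPJ, fell from 156 ± 11.2 to 127 ± 3.67 CPM (SD, n = 2 each; log2 fold change -0.30, edgeR adjusted p = 0.000373). Snw1, which joins the RBPJ complex, rose by 0.13 and Tle2, a Groucho-type co-repressor, fell by 0.34 on the log2 scale. Snw1 lost the call under total count scaling (0.11), in DESeq2 (0.13), and without Foxn3KO replicate 1 (0.13) or 2 (0.12). Tle2 lost it in DESeq2 (-0.34) and without wild-type replicate 1 (-0.30), Foxn3KO replicate 1 (-0.38) or Foxn3KO replicate 2 (-0.30).

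Of 12 further target and feedback genes, 2 were higher and 3 lower. Hes2, a less studied member of the Hes family, fell from 15.2 ± 0.599 to 10.2 ± 0.890 CPM (SD, n = 2 each; log2 fold change -0.58, edgeR adjusted p = 0.000623). Sox9, a factor of progenitors and Müller glia that is also in a marker list, rose by 0.35 in log2 (edgeR adjusted p = 5.17e-05). Heyl, a Hey-family repressor, fell by 0.20 (edgeR adjusted p = 0.00578) and lost the call without Foxn3KO replicate 1 (-0.19). The other calls, named after their values were seen, were Nrarp (-0.14), a feedback inhibitor of Notch, and Id1 (0.21), a helix-loop-helix protein that blocks partners of proneural factors.

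**Figure D5:**
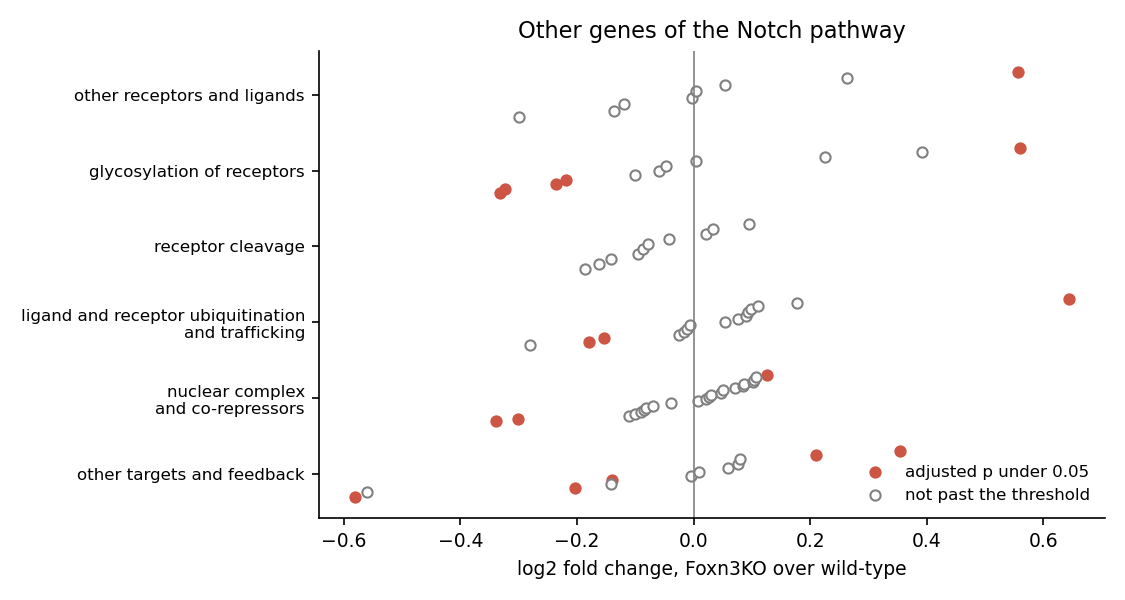
Log2 fold change of the Foxn3KO-labelled libraries over the wild-type-labelled ones (horizontal) for 78 further genes in 6 pathway lists (vertical), with filled points for an edgeR adjusted p under 0.05. Neurl1a (0.64), Lfng (0.56) and Dner (0.56) are the filled points farthest to the right and Hes2 (-0.58) the one farthest to the left.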

How the data were processed

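RNA was sequenced from the retina of individual mouse embryos at embryonic day 19, 2 per group, from 500 ng of total RNA with a strand-specific kit and adaptors with molecular identifiers, per the labels' protocols. The authors deposited 1 table of raw read counts per gene and library. It also holds FPKM values made by the authors, which equal counts over a gene length and a constant per library to a relative difference of 4.48e-09. A mean signal, shrunken log2 fold changes and p-values of the authors' comparison were deposited as well. The submitters' processing notes name mm39 and DESeq2; the aligner, the counter, the annotation and the use of strand and molecular identifiers were not given in the sources used here.

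Of 18472 entries, 1 repeated identifier was dropped. No gene had fewer than 16 counts in all 4 libraries together. The filter was filterByExpr and the scaling TMM. The test was the two-sided quasi-likelihood test of edgeR 4.0.16 (legacy = FALSE; R 4.3.3) on genotype alone, and a gene was called at a Benjamini-Hochberg adjusted p under 0.05 over 17300 genes. Standard errors and 95% intervals were derived from the F statistic. The procedure was tested on simulated data, in which the planted changes were larger than those of every called member but Jag1. That test says nothing about calls of smaller changes. Alternatives were RLE factors, total count scaling, no filter, a minimum of 10 counts per library, DESeq2 1.42.0, limma-voom (limma 3.58.1), the earlier edgeR fit, a replicate block, and fits without each library, where the lone library is assumed to vary like the other group. P-values rest on the spread between embryos, estimated in part across genes, and counting errors cover counting only. Between the wild-type-labelled embryos this spread includes a difference in sex. Overlapping gene models came from GENCODE, by name only; figures were drawn with matplotlib 3.10.9.

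The members and lists were chosen with earlier results of these data known. Named were all members and Foxn3, up to 3 called genes with the smallest p of each pathway list, pathway genes whose sign changed without 1 library, the 3 genes most like the member with the smallest p, and other genes where the text says so; marker genes are named only to describe their lists.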

Additional observations from a re-analysis of the deposited data

How the results depend on the processing

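The 6 member calls were the same genes under RLE factors, total count scaling, both other filters, limma-voom, the earlier edgeR fit and the replicate block. DESeq2 kept 4 of them, with 1 higher, and called 2437 genes over the table against 3795. Leaving out 1 library gave 2336 to 5097 calls over the table, 3 to 6 members called, 1 to 2 higher and 1 to 4 lower, and 9 to 26 other pathway genes. The ligand median was -0.16 under total count scaling and -0.14 to -0.10 without 1 library. Counts differed more between the wild-type-labelled replicates than between the Foxn3KO-labelled ones (mean chi-square per gene 10.1 against 1.89). The cause of the shifts between these fits was not tested. The order of member levels by mean FPKM did not change when 1 library was left out. The other alternatives do not act on the deposited FPKM and could not change it. In Foxn3KO replicate 1 itself Hey1 (13.2 FPKM) stood above Dll4 (12.6 FPKM).

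The replicate numbers are not stated to pair the embryos, and over 17300 genes the differences between replicates 1 and 2 correlated at -0.0083 between the groups. With the replicate block 4222 genes were called, 6 members (the same as without it) and 17 other pathway genes among them.

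Signs changed for genes that were not called with all 4 libraries. Of these, Hdac2 was called without wild-type replicate 1 (0.082) and Tle4 without wild-type replicate 2 (0.15), each with the opposite sign without the other wild-type replicate. Notch2 was -0.0032 under total count scaling and -0.071 to 0.12 without 1 library, and Dll1 was -0.049 to 0.0092. Under total count scaling Cntn6 was -0.016, Xxylt1 -0.016, Maml1 -0.012 and Id3 -0.012, and Mfap2 was 0.00083 with at least 10 counts in every library and 0.00017 in DESeq2. The other pathway genes whose sign changed without 1 library had these ranges: Dlk1 -0.33 to 0.11, Cntn6 -0.035 to 0.039, Mfap2 -0.033 to 0.030, Gxylt2 -0.27 to 0.94, Xxylt1 -0.020 to 0.032, Adam17 -0.019 to 0.093, Aph1c -0.41 to 0.059, Mib1 -0.036 to 0.0042, Numbl -0.10 to 0.054, Dtx2 -0.12 to 0.10, Nedd4 -0.052 to 0.031, Maml1 -0.067 to 0.10, Crebbp -0.0019 to 0.10, Hdac2 -0.025 to 0.082, Tle3 -0.0023 to 0.061, Tle4 -0.0081 to 0.15, Hes6 -0.018 to 0.0086, Hes7 -1.31 to 0.045, Hey2 -0.0083 to 0.14, Gadd45g -0.064 to 0.22, Cdkn1a -0.0080 to 0.19, Id3 -0.019 to 0.041. Depth limits Jag1 most, with 92 counts in its lowest library.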

Other observations

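Marker lists of the cells in which Notch acts showed calls in both directions. The background for the counts below was 21.9% of all tested genes called by edgeR, 12.3% higher and 9.66% lower. DESeq2 called 16.3% of the genes with an adjusted p, in either direction. Of 12 retinal progenitor markers, 4 were higher and 3 lower, with a median log2 fold change of 0.02. Hmga2, a chromatin protein of early progenitors, rose by 0.58, and Fgf15, a growth factor of progenitors, fell by 0.21 on the log2 scale. Ccnd1, the most abundant marker of this list, fell by 0.18 (edgeR adjusted p = 0.00376). Of 12 neurogenic precursor markers, 2 were higher and 2 lower, with a median of 0.01. Insm1, a factor of newborn neurons, rose by 0.34 and Olig2 fell by 0.23, while the proneural genes Atoh7 (0.04) and Neurog2 (0.04) did not pass (edgeR adjusted p = 0.681 and 0.595). Of 10 Müller glia markers, which at this stage are shared with progenitors, 2 were higher and 3 lower. Vim, an intermediate filament gene, rose by 0.37, and Slc1a3, a glutamate transporter gene, fell by 0.40. Of 10 photoreceptor precursor markers, 6 were higher and 0 lower (1 at an unadjusted p under 0.05) in edgeR, with a median of 0.19. DESeq2 called 5 higher and 0 lower. Sag, which encodes the arrestin of rods, rose by 0.99. Of the markers of other neurons, 2 of 10 for retinal ganglion cells were higher and 1 lower, and 0 of 10 for amacrine and horizontal cells were higher (1 at an unadjusted p under 0.05) and 4 lower in edgeR, and DESeq2 called 0 higher and 1 lower. Of 8 microglia markers, edgeR called 0, with 1 at an unadjusted p under 0.05, DESeq2 called 0 of the 6 with an adjusted p, and their sum was 21.0 and 21.2 CPM against 25.2 and 26.3 CPM. Of 5 blood markers tested, edgeR and DESeq2 called 0, with 0 at an unadjusted p under 0.05, and their sum ranged from 30.1 to 78.0 CPM. The genes named from these lists were chosen after their values were seen.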
